A study of Mus musculus with 8 samples.

Results

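The 10 genes described here belong to the signalling branch that gave CREBBP, the CREB-binding protein, its name. They are the CREB transcription factors Creb1, Crem and Atf1, the CRTC coactivators Crtc1, Crtc2 and Crtc3, the CREBBP partner Cited2, and Pde4b, Pde4d and Per1, which are known CREB target genes. Each was taken as the row of the expression table that carries its name, and where a gene had several rows, as the row with the highest mean over the libraries. All 10 had a row among 25477 loci. Of these, 6 had 1 row and 4 had 2 rows. The measurement was total RNA longer than 200 nt from mouse lymphoma cells, isolated from spleen as B220+ GFP+ lymphocytes. B220 is a B cell surface protein and GFP is green fluorescent protein. There were 4 libraries from cells with a scramble short hairpin RNA (shRNA), a control without a target gene, and 4 from cells with an shRNA against Crebbp (shCrebbp). The labels give no strain, age, oncogenic driver or time after shRNA delivery, do not say whether libraries come from separate animals, and do not tell the hairpins apart, so p-values measure only the spread between these libraries.

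In the CREB pathway, hormones and local mediators act on receptors coupled to adenylyl cyclase, cyclic AMP (cAMP) rises, and protein kinase A phosphorylates CREB1, CREM or ATF1, which sit on cAMP response elements (CRE) in promoters. The phosphorylated form binds the KIX domain of CREBBP or of its paralogue EP300, both of which acetylate histones. CRTC proteins are another route of activation: salt-inducible kinases hold them in the cytoplasm, and calcineurin, a calcium-activated phosphatase, releases them to the nucleus. CITED2 binds a different domain of CREBBP and EP300 and competes there with the hypoxia factor HIF1A. PDE4 enzymes degrade cAMP. In lymphocytes, cAMP is raised by receptors for prostaglandin E and adenosine.

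Promoter letters are shown for the members whose windows held the core of a CRE, and for Cited2. Cited2 was added because it alone of the members had no overlap between scramble and shCrebbp libraries. The windows come from RefSeq on GRCm38.p6, the same assembly as mm10, and run from 250 bases before a transcript start to 50 bases after it. There were 12 windows for 8 members, and none was used for Crem and Crtc2. The core TGACG, searched on both strands, stood in 4 windows of 3 members, Atf1, Pde4b and Per1, against 20.8% of 32851 windows of all genes. The full palindrome TGACGTCA, which contains that core on each strand, stood in none of the 12, against 1.79% of all windows. The E-box CACGTG, the site of clock and MYC-family factors, stood in 3 windows, 1 each of Atf1, Cited2 and Per1, against 7.15% of all. Such a match describes letters only, and a window without one shows only that these letters are not in it. All stretches below are on the plus strand, with the CRE core in capitals for Atf1, Pde4b and Per1 and the E-box in capitals for Cited2.
Atf1, chr15:100227749-100227793, core 90 bases before the start: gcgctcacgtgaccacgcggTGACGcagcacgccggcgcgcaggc
Pde4b, chr4:102421501-102421545, core 34 bases before the start: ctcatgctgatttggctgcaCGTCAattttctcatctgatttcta
Per1, chr11:69098699-69098727, core 246 bases before the start: ttatTGACGgtgtgagacatcctgatcgc
Per1, chr11:69100000-69100044, core 132 bases before another start: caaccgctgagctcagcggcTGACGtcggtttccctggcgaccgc
Cited2, chr10:17722978-17723227, the 250 bases before the start with the E-box 153 bases before it: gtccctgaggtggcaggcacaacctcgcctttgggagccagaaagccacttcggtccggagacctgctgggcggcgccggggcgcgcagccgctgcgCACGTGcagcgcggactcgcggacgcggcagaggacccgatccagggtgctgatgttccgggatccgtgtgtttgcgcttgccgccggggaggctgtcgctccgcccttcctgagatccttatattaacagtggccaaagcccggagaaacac

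Expression is in FPKM, the fragments counted per kilobase of transcript after scaling to sequencing depth. The file gives no read counts, so depth is unknown, and the share of loci listed at 0, which tends to fall with depth, ran from 33.2 to 51.8% over the 8 libraries. Sample titles carry a code: AO227 for every scramble library, AO228 for shCrebbp 1 and 2, and AO229 for shCrebbp 3 and 4. The meaning of these name prefixes is not given. No prefix is shared by the groups, so a difference between groups cannot be told apart from one between prefixes. Groups were compared with limma on log2(FPKM + 1) at the 11417 loci whose mean reached 1 FPKM, a filter that all 10 members passed. A difference on this scale understates the change of low genes. B cell markers, 8 of 8 at a mean of at least 1 FPKM, summed to between 2649 and 3142 FPKM in scramble and between 2763 and 3516 in shCrebbp libraries. Markers of T and NK cells summed to at most 13.8 FPKM in any library, those of macrophages to at most 17.9 and those of neutrophils to at most 4.44, with Elane at 0 throughout. Red cell precursor markers reached at most 30.7 FPKM, and those of platelets, endothelium and stroma at most 48.9. The targeted gene Crebbp measured 33.7, 22.9, 21.3 and 25.8 FPKM in scramble libraries 1 to 4. In shCrebbp libraries 1 to 4 it measured 18.9, 26.6, 23.4 and 19.3 FPKM. The groups overlapped, with a difference of -0.22 (SE 0.18; limma, adjusted p = 0.915; exact two-sided permutation p = 0.314), which was -0.0859 without scramble 1. Ep300 differed by 0.16 (SE 0.18; limma, adjusted p = 0.929).

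In shCrebbp against scramble, Cited2 was the one member whose groups did not overlap: it was lower in all 4 shCrebbp libraries. None of the 10 members passed an adjusted p of 0.05, and nor did any other locus (0% called, smallest adjusted p 0.521). At an unadjusted p under 0.05, limma gave 1 of 10 members, Cited2, against 573 of 11417 loci (5.02%). In that direction, lower, all loci gave 2.93%. The estimates were below 0 for 7 members and above 0 for 3, with a median of -0.11 against 0.01 over all loci, of which 48% were below 0. The interval of every member other than Cited2 included 0.

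**Figure D1:**
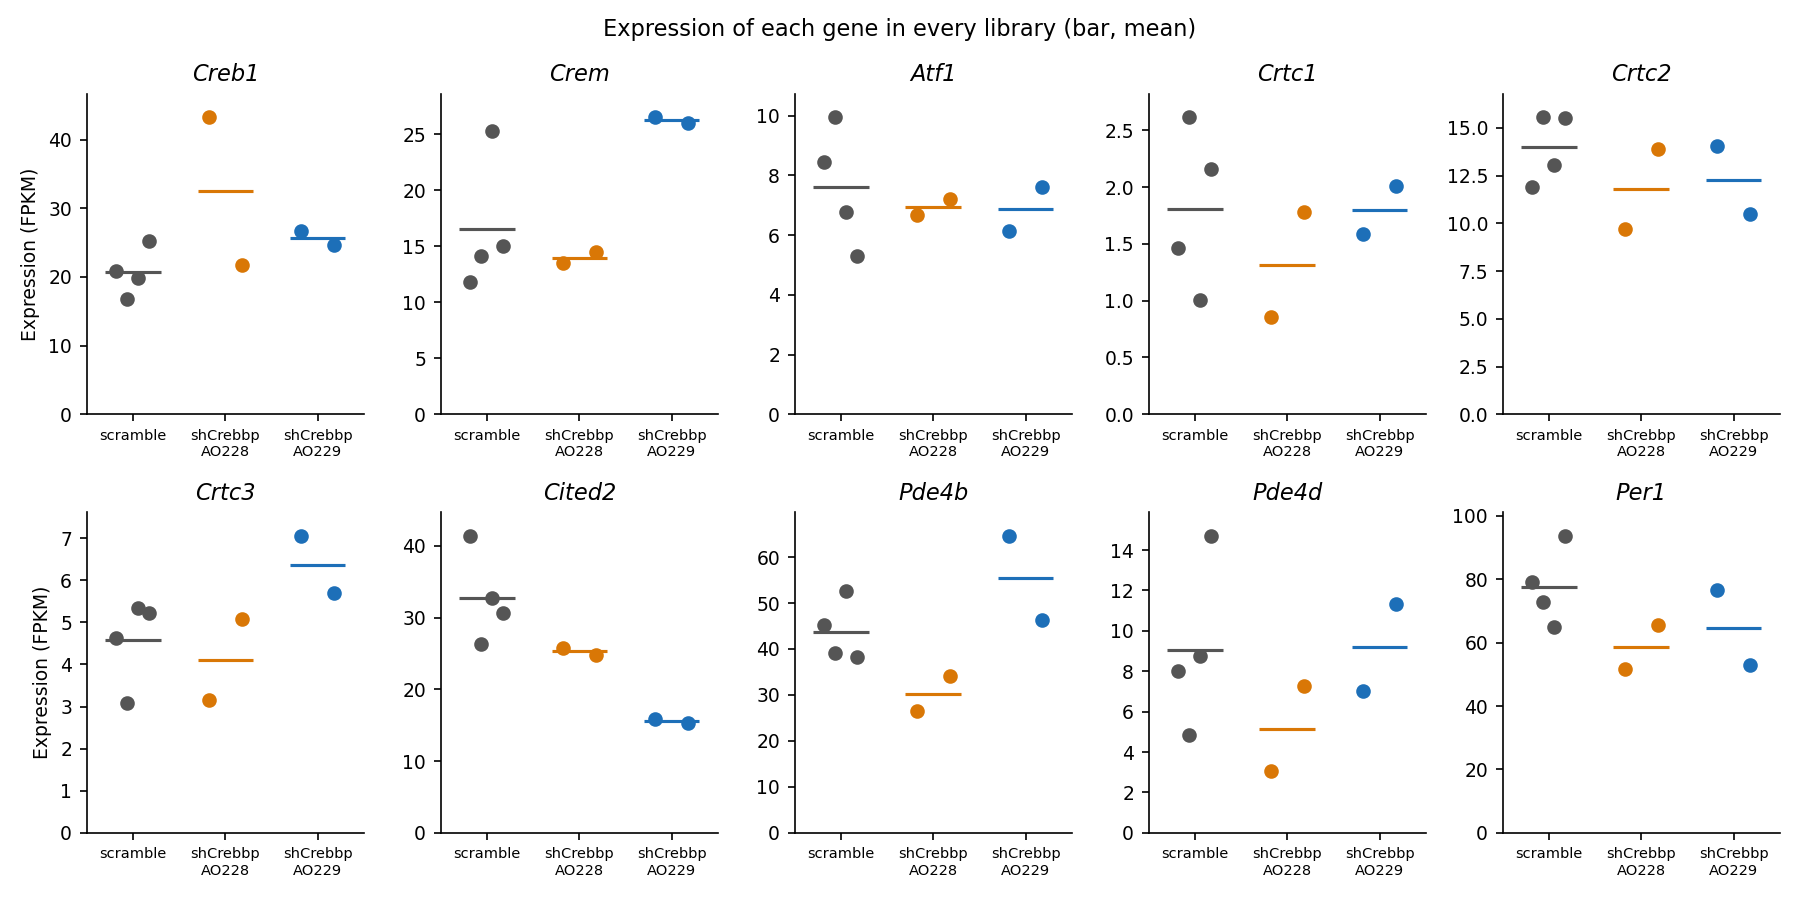
Expression in FPKM (vertical axis, from 0) of each of the 10 genes, 1 point per library, with scramble, AO228 and AO229 libraries side by side and a bar at each mean. All 4 shCrebbp points of Cited2, from 15.4 to 25.8 FPKM, lie below the lowest scramble point at 26.3 FPKM, and the pairs of AO228 and AO229 points of Pde4b and Crem stand apart from each other.

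Among the CREB factors, Creb1, the founding member of the family, was above Crem in 6 of 8 libraries. Creb1 (chr1:64531326-64604784, mm10) measured 20.9, 16.8, 19.9 and 25.2 FPKM in scramble libraries 1 to 4, a mean of 20.7 ± 3.46 (SD, n = 4). It measured 43.3, 21.7, 26.7 and 24.6 FPKM in shCrebbp libraries 1 to 4, a mean of 29.1 ± 9.67 (SD, n = 4). shCrebbp 1 stood highest, shCrebbp 3 lay above all scramble libraries too, and the other two fell inside the scramble range. The difference was 0.44 (95% interval -0.06 to 0.94; limma, adjusted p = 0.915; exact permutation p = 0.0857), and without shCrebbp 1 it was 0.23.

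Crem, which encodes both activators and, from an internal cAMP-responsive promoter, the repressor ICER, is on chr18:3255588-3366863. Its level was 11.8, 14.1, 25.3 and 15.03 FPKM in scramble libraries 1 to 4. In shCrebbp libraries 1 to 4 it was 13.5, 14.5, 26.5 and 26.0 FPKM. Scramble 3 and both AO229 libraries were high and the other 5 low. The group means were 16.6 ± 5.98 and 20.1 ± 7.10 FPKM (SD, n = 4 each), a difference of 0.26 (SE 0.29; limma, adjusted p = 0.935), which ranged from 0.11 without shCrebbp 3 to 0.47 without scramble 3. The table does not separate ICER from the other transcripts of the locus.

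Atf1 (chr15:100227859-100261462), whose product dimerizes with CREB1, had the lowest levels of the 3. They were 8.45, 9.95, 6.76 and 5.29 FPKM in scramble and 6.68, 7.21, 6.14 and 7.61 FPKM in shCrebbp libraries 1 to 4. The shCrebbp values lay inside the scramble range, and the difference was -0.10 (SE 0.20; limma, adjusted p = 0.964). As shares of the summed FPKM of the 3 factors, Creb1 made up 46.4% ± 7.995 in scramble and 51.4% ± 11.7 in shCrebbp libraries (SD, n = 4 each). Crem made up 36.2% and 36.0%, and Atf1 17.4% and 12.6%. The share of Creb1 was highest in shCrebbp 1, at 68.2%, and lowest in scramble 3, at 38.3%.

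Of the CRTC coactivators, Crtc2 contributed most of the family's RNA in every library, from 57.6 to 73.1% of the summed FPKM. Crtc2 (chr3:90254281-90281002, an interval that also covers Dennd4b, which has a row of its own) measured 11.9, 15.6, 13.0 and 15.5 FPKM in scramble libraries 1 to 4. It measured 9.70, 13.9, 14.0 and 10.5 FPKM in shCrebbp libraries 1 to 4. shCrebbp 1 and 4 lay below the scramble range and the other two inside it, with a difference of -0.21 (SE 0.17; limma, adjusted p = 0.915; exact permutation p = 0.229).

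Crtc3 (chr7:80586354-80688877) was the second of the family, with 4.63, 3.10, 5.35 and 5.21 FPKM in scramble and 3.15, 5.09, 7.06 and 5.69 FPKM in shCrebbp libraries. Both AO229 libraries were above all scramble libraries and both AO228 libraries inside their range. The difference was 0.14 (SE 0.25; limma, adjusted p = 0.954), and it was 0.0035 without scramble 2 and 0.33 without shCrebbp 1. Crtc1 (chr8:70382352-70439573), the member best known from neurons, was close to the filter at 1.46, 2.62, 1.003 and 2.16 FPKM in scramble and 0.855, 1.78, 1.59 and 2.01 FPKM in shCrebbp libraries. The groups overlapped, with a difference of -0.12 (SE 0.29; limma, adjusted p = 0.967). Crtc3 made up 22.7% of the CRTC sum in scramble and 27.5% in shCrebbp libraries, and Crtc1 8.76% and 8.22%.

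**Figure D2:**
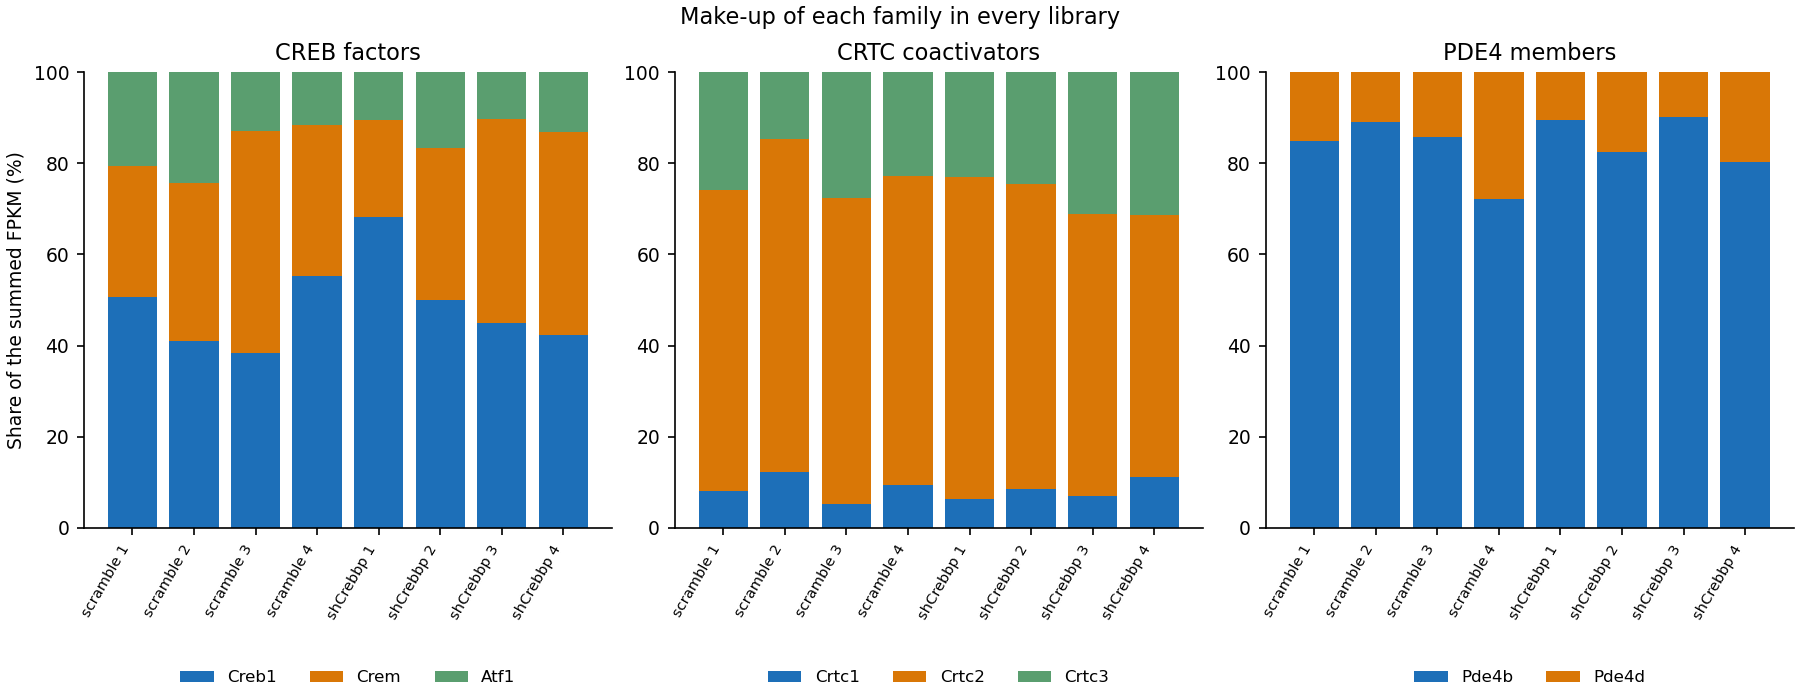
Share of the summed FPKM (vertical axis, %) that each gene contributed within the CREB factors, the CRTC coactivators and the 2 PDE4 genes, 1 stacked bar per library. Crtc2 and Pde4b make up most of their family in all 8 bars, with at least 57.6% and 72.2%, whereas Creb1 and Crem exchange the larger share between libraries.

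Cited2 (chr10:17723068-17728205) measured 41.4, 26.3, 32.8 and 30.7 FPKM in scramble libraries 1 to 4. It measured 25.8, 24.8, 15.8 and 15.4 FPKM in shCrebbp libraries 1 to 4. Both AO229 libraries were far below scramble, while both AO228 libraries lay just under the lowest scramble library. The means were 32.8 ± 6.36 and 20.5 ± 5.63 FPKM (SD, n = 4 each), so the shCrebbp level was 62.4% of the scramble level. The difference was -0.68 (95% interval -1.16 to -0.19), with an unadjusted limma p of 0.0122, rank 137 of 11417, and an adjusted p of 0.915. The exact permutation p was 0.0286, the smallest that 70 divisions allow. That test treats the libraries as interchangeable, although the shCrebbp values stood apart by prefix. Cited2 was lower under all 18 alternatives tried, by -0.34 to -1.01, with limma adjusted p from 0.271 to 0.972. Since the groups did not overlap, leaving out a library or a prefix could change the size of the difference but not its sign. Of all loci, 1.74% were lower in shCrebbp without overlap.

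In bulk RNA, fewer cells of a type and less RNA per cell cannot be told apart. Beside Cited2, 5 of 5 plasma cell markers with a row were at a mean of at least 1 FPKM, none of them 0 in any library. Their sum, most of which was Igj, the joining chain of secreted antibody, was 2335, 1042, 1752 and 1091 FPKM in scramble and 1555, 708.2, 411.5 and 750.8 FPKM in shCrebbp libraries 1 to 4. The ranges of this sum overlapped. Each of the 5 markers had a lower mean in shCrebbp than in scramble libraries, as Cited2 had. Igj, Xbp1, Prdm1 and Sdc1 also had a lower mean in AO229 than in AO228, as Cited2 had, and Tnfrsf17 a higher one. Igj measured 1454 and 629 FPKM in AO228 and 355 and 677 FPKM in AO229. Prdm1 measured 10.6 and 5.75 FPKM in AO228 and 3.06 and 8.06 FPKM in AO229. Sdc1 measured 12.5 and 6.88 FPKM in AO228 and 8.12 and 8.66 FPKM in AO229. The pairs of Igj, Prdm1 and Sdc1 overlapped. Tnfrsf17, a plasma cell receptor, was at 3.69 to 10.9 FPKM in scramble libraries. In AO228 it was at 1.56 and 1.21 FPKM and in AO229 at 1.98 and 3.64 FPKM. All shCrebbp values of Tnfrsf17 thus lay below its lowest scramble value, as was so for 1.74% of all loci. The part of plasma cells in the Cited2 difference was not tested. The loci most like Cited2 over the 8 libraries, by Pearson correlation of log2(FPKM + 1) among 6860 candidates, were Fkbp2 (r = 0.967), Xbp1 (r = 0.954) and Ing3 (r = 0.95), a description across libraries that share their group structure. Xbp1, a factor of plasma cells and of the unfolded protein response and itself one of the plasma cell markers, measured 119.9, 67.6, 89.2 and 75.6 FPKM in scramble and 76.0, 65.2, 43.4 and 53.1 FPKM in shCrebbp libraries.

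The CREB target Pde4b (chr4:102254742-102607262), which encodes a cAMP phosphodiesterase, measured 45.2, 39.0, 52.5 and 38.3 FPKM in scramble libraries 1 to 4. It measured 26.5, 34.1, 64.6 and 46.2 FPKM in shCrebbp libraries 1 to 4. Both AO228 libraries were below all scramble libraries, shCrebbp 3 was above them and shCrebbp 4 inside their range. The group means of 43.7 ± 6.60 and 42.9 ± 16.6 FPKM (SD, n = 4 each) gave a difference of -0.09 (SE 0.26; limma, adjusted p = 0.973). The coefficient of variation of Pde4b was 15.1% in scramble and 38.8% in shCrebbp libraries, against medians of 24.5% and 25.5% over all loci tested.

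Pde4d, in a row merged with Mir1904 (chr13:108654177-109955969), measured 8.02, 4.83, 8.75 and 14.7 FPKM in scramble and 3.07, 7.25, 7.04 and 11.3 FPKM in shCrebbp libraries. The groups overlapped widely, with a difference of -0.32 (SE 0.38; limma, adjusted p = 0.941), which was -0.0175 without shCrebbp 1 and -0.55 without scramble 2. Pde4b made up 83.0% of the summed FPKM of the pair in scramble and 85.6% in shCrebbp libraries.

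Per1 (chr11:69095130-69110789), a repressor of the circadian clock whose transcription responds to CREB, was the most abundant member. It measured 79.2, 72.9, 65.0 and 93.7 FPKM in scramble and 51.8, 65.6, 76.6 and 52.9 FPKM in shCrebbp libraries 1 to 4. shCrebbp 1 and 4 lay below the scramble range and the other two inside it. The difference was -0.33 (SE 0.17; limma, adjusted p = 0.915; exact permutation p = 0.143). The labels do not give the time of day at which spleens were taken.

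By scramble mean, the order of the members' FPKM levels was Per1, Pde4b, Cited2, Creb1, Crem, Crtc2, Pde4d, Atf1, Crtc3 and Crtc1, from 77.7 down to 1.81 FPKM. Neighbours in this order had overlapping scramble ranges except Per1 and Pde4b, Cited2 and Creb1, and Crtc3 and Crtc1. Cited2 stood above Creb1 in 4 of 4 scramble libraries and in 1 of 4 shCrebbp libraries. Further rows of Crem, Crtc2, Crtc3 and Pde4d, which by their numbering lie on the opposite strand, had means of 11.9, 22.5, 16.8 and 21.1% of the leading row. The opposite-strand row of Crtc2 measured 2.02, 4.83, 5.33 and 4.07 FPKM in scramble and 0.167, 1.94, 2.39 and 2.70 FPKM in shCrebbp libraries, a difference of -0.93 (limma, adjusted p = 0.915).

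**Figure D3:**
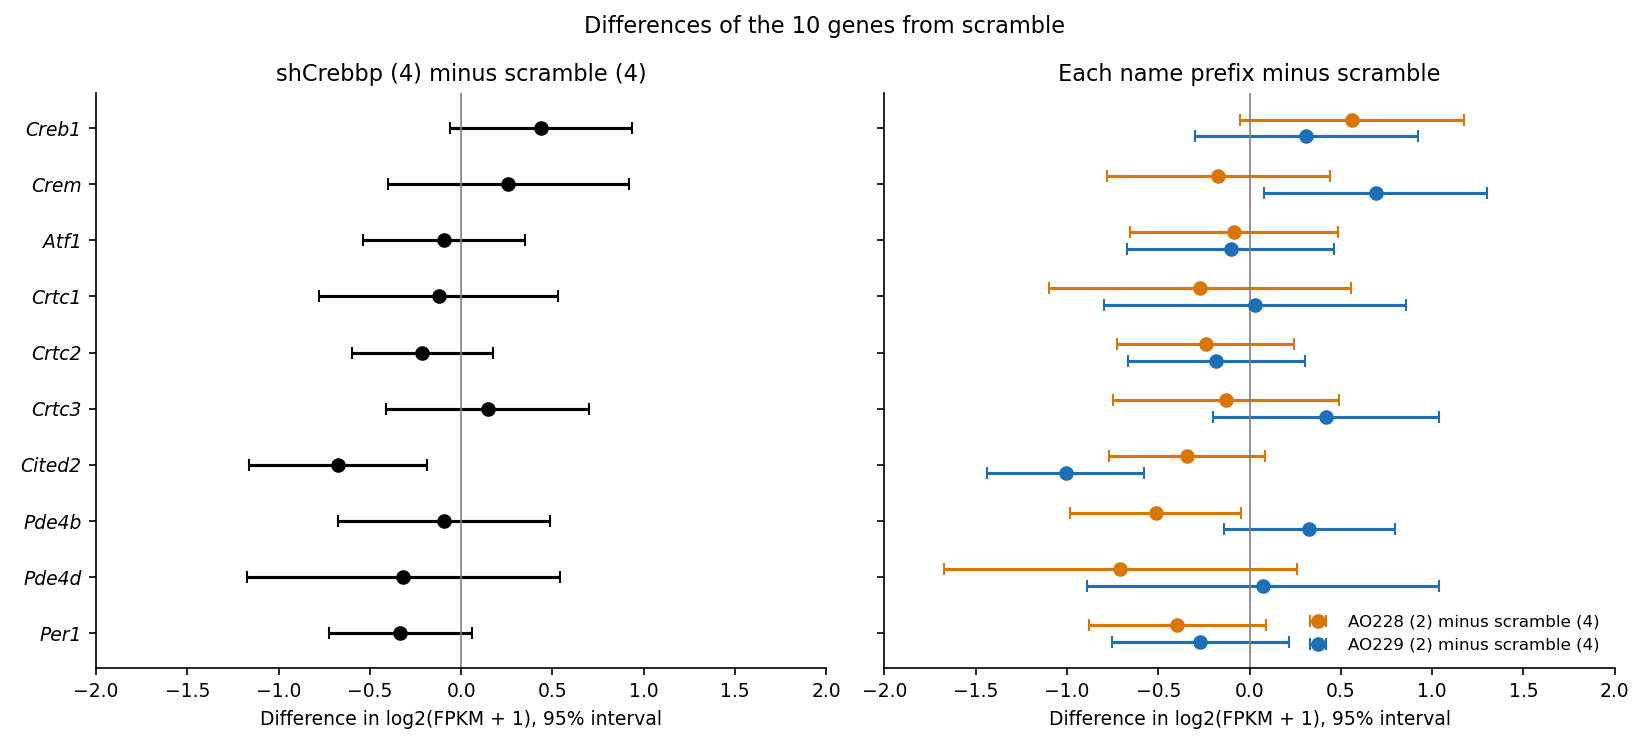
Difference in log2(FPKM + 1) from scramble (horizontal axis) with its 95% interval for each gene, for all 4 shCrebbp libraries on the left and for each name prefix on the right. On the left the interval of Cited2, -1.16 to -0.19, is the one that leaves out 0. On the right the AO228 and AO229 estimates of Pde4b lie at -0.52 and 0.33.

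The shCrebbp libraries differed among themselves by name prefix, and among the members the unadjusted p was smallest at Pde4b, Cited2 and Crem. AO229 and AO228 were compared in 1 fit with scramble, in which 146 loci passed an adjusted p of 0.05 (1.28%). That count was unstable: it was 2, 276 and 3 without scramble 1, 2 and 3. With all 8 libraries kept it was 2 with a prior without trend and 27 with no filter. It was 240 with a mean of at least 5 FPKM and 495 with library weights. None of the 10 members was among the 146, with adjusted p from 0.121 to 0.994. At an unadjusted p under 0.05 there were 3 members, 2 higher and 1 lower in AO229, against 16.4% of all loci (7.75% higher and 8.64% lower). Of the marker lists, that of platelets, endothelium and stroma also stood apart by prefix, with sums of 20.4 to 41.1 FPKM in scramble, 16.4 and 15.9 FPKM in AO228 and 48.9 and 41.7 FPKM in AO229. Nearly all of it was Pecam1, at 16.4 and 15.3 FPKM in AO228 and 47.9 and 41.6 FPKM in AO229, while Cdh5, Pf4, Ppbp and the 3 collagen genes were each under 1 FPKM in every library. Its part in the differences between the prefixes was not tested.

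Pde4b was 0.84 higher in AO229 than in AO228 (95% interval 0.30 to 1.38; limma, unadjusted p = 0.00673, adjusted p = 0.121). Crem was 0.86 higher (0.16 to 1.57; unadjusted p = 0.0220, adjusted p = 0.211). Cited2 was lower in AO229, with a difference of -0.67 (-1.16 to -0.17; unadjusted p = 0.0143, adjusted p = 0.170). Against scramble, which both estimates share, Cited2 was at -0.34 in AO228 and -1.01 in AO229, Crem at -0.17 and 0.69, and Pde4b at -0.52 and 0.33. Of the 10 members, 9 estimates were below 0 in AO228, against 48.2% of all loci, and 4 in AO229, against 47.6%. Creb1 differed by -0.25 between the prefixes, and by 0.23 once shCrebbp 1 was left out.

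Other genes of the pathway were read from 8 lists with 131 genes, of which 94 were tested. The lists were chosen with earlier results of these data known, so their shares beside all loci are descriptions and not tests of the lists. In shCrebbp against scramble none had an adjusted p under 0.05, and 10 (10.6%) had an unadjusted limma p under 0.05, 8 lower and 2 higher, against 2.93% and 2.08% of all loci. The count of 10 became 5 without scramble 2, 26 with AO228 alone and 17 with AO229 alone. Between the prefixes, 41 of the 94 (43.6%) had an unadjusted p under 0.05, 22 higher and 19 lower in AO229, against 16.4% of all loci (7.75% higher and 8.64% lower), and 4 passed the adjusted threshold, against 1.28% of all loci. The count of 41 became 24, 19 and 26 without shCrebbp 1, 3 and 4.

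**Figure D4:**
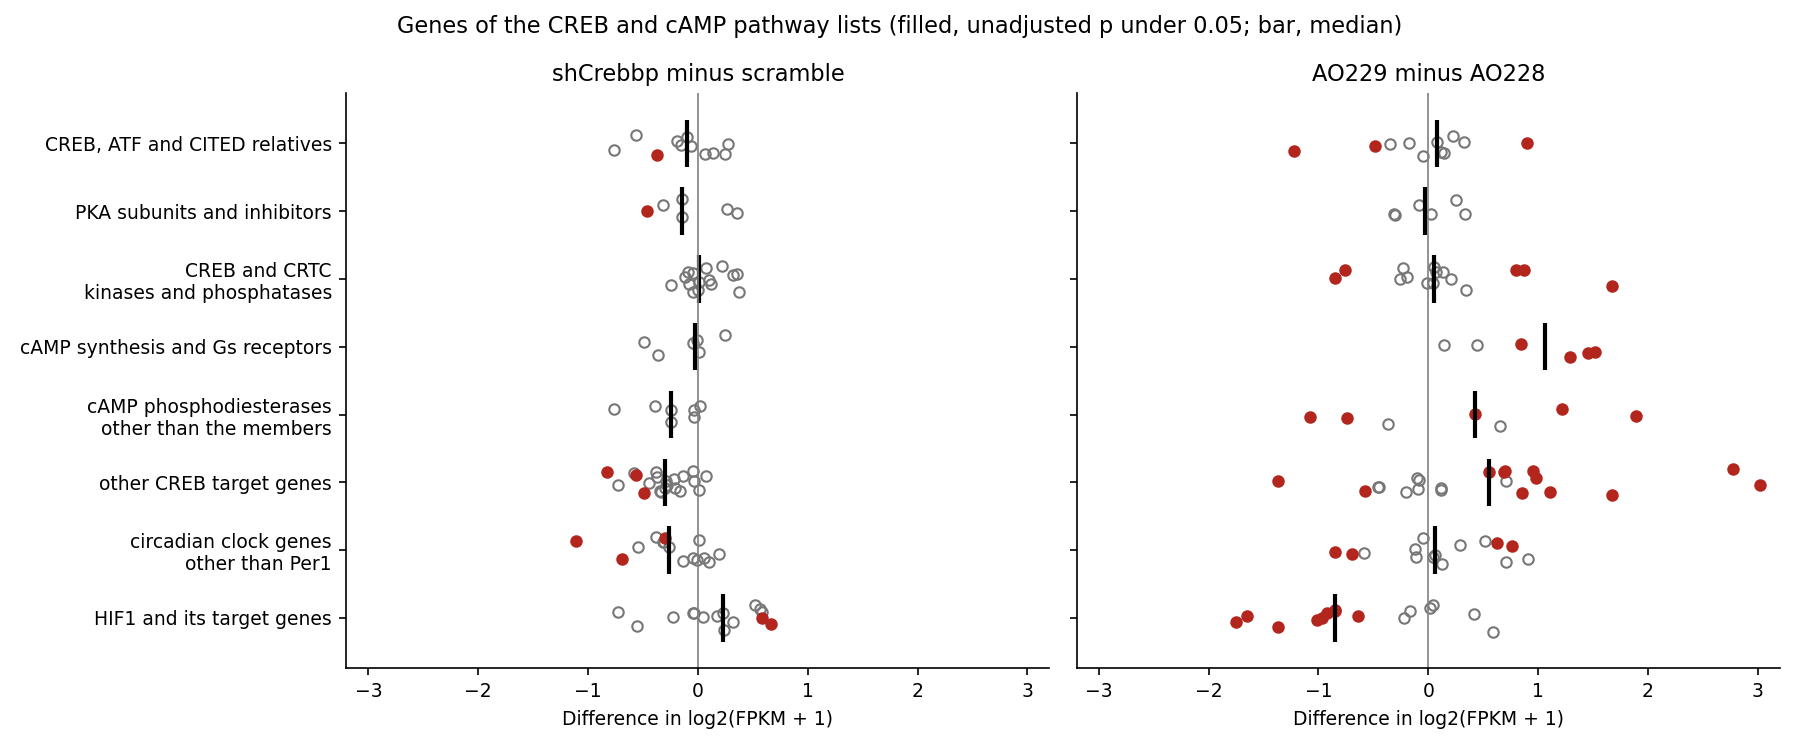
Difference in log2(FPKM + 1) (horizontal axis) of each tested gene in the 8 pathway lists, for shCrebbp minus scramble on the left and AO229 minus AO228 on the right, with unadjusted p under 0.05 filled in red and a bar at each list's median. On the left the medians lie between -0.30 and 0.23, and on the right the receptor and cyclase list is at 1.07 and the HIF1 list at -0.85.

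Upstream of CREB, 6 genes for adenylyl cyclases and cAMP-raising receptors were tested, and their median difference in shCrebbp was -0.03, with 0 of 6 at an unadjusted p under 0.05. Between the prefixes all 6 were higher in AO229, by a median of 1.07, 4 of them at an unadjusted p under 0.05, against 7.75% of all loci. Adora2a, an adenosine receptor, measured 1.47 to 2.80 FPKM in scramble libraries, 0.167 and 0.685 FPKM in AO228 and 3.96 and 1.98 FPKM in AO229. The AO228 libraries were the lowest of the 8. Adcy3, an adenylyl cyclase, differed by 0.24 (SE 0.26) in shCrebbp.

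Of 6 protein kinase A genes, 1 had an unadjusted p under 0.05, against 5.02% of all loci: Pkig, an inhibitor of the kinase. Its mean was 76.3 ± 11.7 FPKM in scramble and 55.0 ± 9.36 in shCrebbp libraries (SD, n = 4 each), a difference of -0.47 (limma, adjusted p = 0.915). The catalytic subunit Prkaca differed by 0.35 (SE 0.19) and the regulatory subunit Prkar2a by 0.27 (SE 0.20). No protein kinase A gene reached an unadjusted p under 0.05 between the prefixes.

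Of 15 kinases and phosphatases of CREB and CRTC, 0 had an unadjusted p under 0.05 in shCrebbp. Ppp3cb, a catalytic subunit of calcineurin, was higher without overlap, at 18.5, 13.9, 17.5 and 13.3 FPKM in scramble against 20.1, 18.8, 18.8 and 21.5 FPKM in shCrebbp libraries, a difference of 0.32 (limma, adjusted p = 0.915). Of all loci, 1.58% were higher without overlap. The CREB kinases Rps6ka4 and Rps6ka1 differed by 0.36 (SE 0.19) and -0.25 (SE 0.18).

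Of 7 other phosphodiesterases, 6 estimates were below 0, against 48% of all loci, with a median of -0.25 and 0 at an unadjusted p under 0.05. Pde8a, Pde3b and Pde2a had the smallest p of this list and differed by -0.76 (SE 0.59), -0.25 (SE 0.24) and -0.39 (SE 0.40). Between the prefixes 5 of 7 had an unadjusted p under 0.05, against 16.4% of all loci. Pde8a and Pde2a were at -1.71 and -0.995 in AO228 and at 0.18 and 0.22 in AO229, and Pde3b at 0.12 and -0.62.

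Of 21 other CREB target genes, 19 estimates were below 0 in shCrebbp with both prefixes pooled, against 48% of all loci, with a median of -0.30. At an unadjusted p under 0.05 there were 3, all lower, against 2.93% of all loci. Gem, a small GTPase induced in activated lymphocytes, measured 208, 194, 202 and 199 FPKM in scramble against 146, 135, 122 and 141 FPKM in shCrebbp libraries. The groups stood far apart relative to their spread, with a difference of -0.56 (SE 0.12; unadjusted p = 0.00102, adjusted p = 0.703 with limma). Egr1, an immediate early factor, had 187 to 314 FPKM in scramble and 106 to 169 FPKM in shCrebbp libraries, again without overlap, a difference of -0.83 (SE 0.21; limma, adjusted p = 0.915). Across all loci, 1.74% were lower without overlap. Icam1, an adhesion receptor, differed by -0.49 (SE 0.20). For these 3 genes the estimates were negative in AO228 and in AO229.

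Between the prefixes 12 of these 21 targets had an unadjusted p under 0.05, 10 of them higher in AO229, against 16.4% and 7.75% of all loci, with a median of 0.55, and 3 passed the adjusted threshold (1.28% of all loci). Those 3 and Ptger4 of the receptor list were named after their values were seen. Nr4a1, an orphan nuclear receptor induced through CREB, measured 252, 219, 379 and 373 FPKM in scramble, 40.5 and 95.4 FPKM in AO228 and 587 and 448 FPKM in AO229, a difference of 3.02 between the prefixes (SE 0.42; limma, adjusted p = 0.0305). Its relative Nr4a2 measured 5.59 to 18.8 FPKM in scramble, 1.62 and 3.69 FPKM in AO228 and 24.5 and 21.4 FPKM in AO229 (difference 2.77, SE 0.49; limma, adjusted p = 0.0434). For both, AO228 lay below and AO229 above every scramble library. Against scramble, Nr4a1 was at -2.24 in AO228 and 0.79 in AO229, and Nr4a2 at -1.73 and 1.04. The 19 target estimates below 0 in shCrebbp, which include both genes, were thus not all below 0 in each prefix.

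Ptger4, a prostaglandin E receptor that raises cAMP, measured 10.2 to 14.5 FPKM in scramble, 7.15 and 6.77 FPKM in AO228 and 20.4 and 16.8 FPKM in AO229 (difference 1.29, SE 0.22; limma, adjusted p = 0.0432). The cyclin gene Ccna2 went the other way, with 7.08 to 12.3 FPKM in scramble, 15.8 and 14.7 FPKM in AO228 and 5.32 and 5.20 FPKM in AO229 (difference -1.37, SE 0.26; limma, adjusted p = 0.0497). These calls depended on the settings: Nr4a1 passed in 9 of 16 alternatives, Ptger4 in 8, and Nr4a2 and Ccna2 in 7 each, while their differences ranged from 2.41 to 3.63 for Nr4a1, 1.16 to 1.43 for Ptger4, 2.35 to 3.19 for Nr4a2 and -1.51 to -1.32 for Ccna2. All 4 lost their call without shCrebbp 1, 3 or 4 and without scramble 1 or 3. Without shCrebbp 2 the calls of Nr4a2, Ptger4 and Ccna2 were lost, and without scramble 2 that of Nr4a2. Leaving out an shCrebbp library left its prefix with 1 library, which was assumed to vary like the others.

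**Figure D5:**
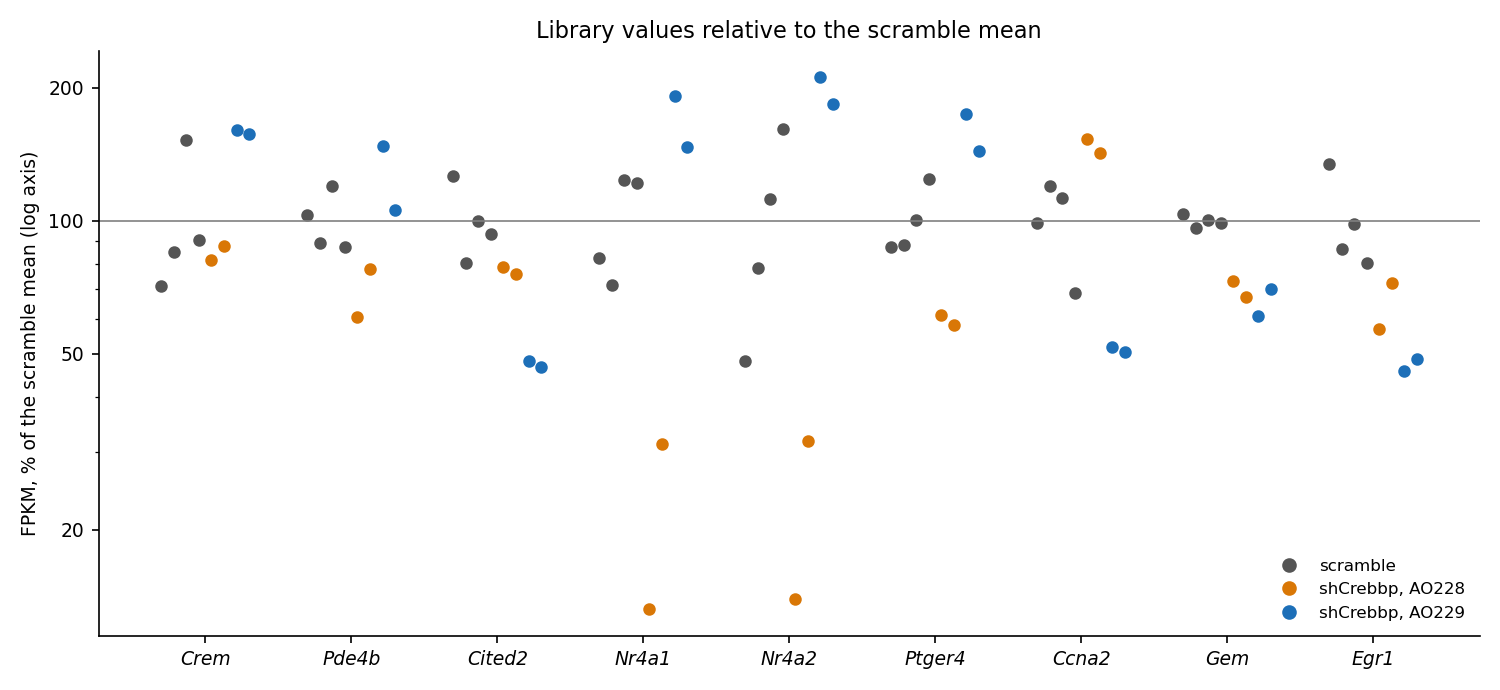
FPKM as a percentage of the gene's scramble mean (vertical log axis), 1 point per library, for 3 members and 6 list genes. AO228 and AO229 points lie on opposite sides of all scramble points for Nr4a1, Nr4a2, Ptger4 and Ccna2, while all 4 shCrebbp points lie below scramble for Cited2, Gem and Egr1.

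Of 15 clock genes other than Per1, 11 estimates were below 0 in shCrebbp, against 48% of all loci, with a median of -0.27. An unadjusted p under 0.05 was found for 3, all lower, against 2.93% of all loci. Bhlhe40, a repressor in the clock, measured 43.3, 42.3, 58.3 and 67.1 FPKM in scramble and 9.49, 29.3, 34.6 and 30.6 FPKM in shCrebbp libraries, without overlap (difference -1.11, SE 0.37; limma, adjusted p = 0.915). Its paralogue Bhlhe41 differed by -0.69 (SE 0.24). Tef, an output factor of the clock, had 11.7 to 14.7 FPKM in scramble and 10.1 to 11.1 FPKM in shCrebbp libraries. Its groups did not overlap either (difference -0.30, SE 0.13). Among all loci, 1.74% were lower without overlap.

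HIF1A competes with CITED2 for CREBBP, so a list of HIF1 and its targets was read, but any tie of it to Cited2 was not tested. Of its 15 tested genes, 10 estimates were above 0 and 5 below, with a median of 0.23. Over all loci, 48% were below 0. An unadjusted p under 0.05 was reached by 2, both higher, against 2.08% of all loci. They were Pdk1, a mitochondrial kinase that inhibits pyruvate dehydrogenase (difference 0.66, SE 0.27, limma adjusted p = 0.915), and Egln1. Egln1, the oxygen sensor that marks HIF1A for degradation, differed by 0.59 (SE 0.25). Ldha, lactate dehydrogenase A, measured 64.5, 64.4, 82.6 and 65.3 FPKM in scramble and 180, 104, 71.3 and 80.7 FPKM in shCrebbp libraries, with both AO228 libraries the highest. Between the prefixes 9 of the 15 had an unadjusted p under 0.05, all lower in AO229, against 8.64% of all loci, with a median of -0.85, and none passed the adjusted threshold.

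Of the 17 CREB, ATF and CITED relatives 11 were tested, with a median of -0.10 in shCrebbp. Against 5.02% of all loci, 1 had an unadjusted p under 0.05. That was Atf6, a membrane-bound sensor of unfolded protein in the endoplasmic reticulum, at 22.1 ± 3.45 FPKM in scramble and 16.8 ± 2.39 FPKM in shCrebbp libraries (SD, n = 4 each), a difference of -0.37 (limma, adjusted p = 0.915). Creb3l2 and Crebl2 differed by -0.76 (SE 0.38) and -0.56 (SE 0.31).

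Over the 8 libraries, the loci with the pattern most like Creb1 were Ndufb9 (r = 0.960), Btk (r = 0.954) and Ankmy2 (r = 0.951), each with its highest value in shCrebbp 1. For Per1 they were Plekhg2 (r = 0.972), Fam50a (r = 0.948) and Vps4b (r = 0.946).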

How the data were processed

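Total RNA was sequenced from 4 scramble and 4 shCrebbp libraries, numbered by their place in the sample list. The kit was stranded with ribosomal RNA removed, per the labels' protocols. CASAVA 1.8, TopHat2, Cufflinks and mm10 were used, per the submitters' processing notes, which give no parameters. The authors deposited FPKM per locus; the unit was inferred from values and identifiers. Of the 13 sample columns, 8 carried the name of a sample. The other 5 carried none and were left out. Without counts no counting interval was computed.

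Values were analysed as log2(FPKM + 1) at loci whose mean reached 1 FPKM, with two-sided limma 3.58.1 tests in R 4.3.3 (empirical Bayes prior trended on the mean, Benjamini-Hochberg over all 11417 loci, threshold 0.05), and with an exact permutation test over 70 divisions of the libraries. Name prefixes were fitted as 3 coefficients. The script was tested on simulated data. Strand was read from locus numbering, which matched the annotated strand at 99.7% of 20345 loci. The members and lists were chosen with earlier results of these data known. Named are the members, Crebbp, Ep300, the 3 genes of smallest p in each list and the 3 loci most correlated with each of Cited2, Creb1 and Per1. Of these, 1 list gene is counted in its list but not reported here by name. Alternatives changed the pseudocount (0.1), filter (none or 5 FPKM), scaling, prior, library weights, row choice, name prefix or 1 library at a time. Figures used Python 3.11.15.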

Additional observations from a re-analysis of the deposited data

Results flagged for a closer look

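Genes of the CREB and cAMP lists differed between the shCrebbp libraries by name prefix, each with an adjusted limma p under 0.05 for the difference itself. AO229 minus AO228 was 3.02 for Nr4a1, 2.77 for Nr4a2, 1.29 for Ptger4 and -1.37 for Ccna2 on the log2 scale. These genes were named because they passed that threshold, and each lost its call under several of the alternatives tried. What the prefixes stand for was not given, and each prefix held 2 libraries.

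Among 78 groups of 4 libraries checked for a library far from the others, 5 held one, and chance gives about 1 in 20. Crebl2 stood out in scramble 4 at 7.48 FPKM, Prkar2a in shCrebbp 4 at 18.05 FPKM, Icam1 in scramble 2 at 52.1 FPKM, Egln1 in scramble 2 at 4.21 FPKM and Ldha in scramble 3 at 82.6 FPKM. No member stood out in this way in either group.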

How the results depend on the processing

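No paired analysis was possible because no label ties a scramble library to an shCrebbp library. No member reached an adjusted p under 0.05 under any alternative tried, in either comparison, and Cited2 stayed lower in shCrebbp throughout. For Cited2, whose groups did not overlap, leaving out a library or a prefix could not change the sign. In separate fits of 1 prefix with scramble, loci called numbered 1 for AO228 and 3 for AO229, against 0 for both together. List genes at an unadjusted p under 0.05 numbered 26 and 17 in these fits, against 10 for both together. Leaving out 1 library gave 0 to 2 called loci and 5 to 10 list genes. Between prefixes, 146 called loci became 27 with no filter, 240 with a mean of at least 5 FPKM, 2 with a prior without trend, 495 with library weights and 2 to 276 without 1 library.

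With a mean of at least 5 FPKM, Crtc1 and Crtc3 were not among the loci tested. Direction changed at the following members and list genes. With library weights, Crtc1 was at 0.0594 and Pde4b at 0.087. With AO228 alone, Crem was at -0.17, Crtc3 at -0.13 and Pde3b at 0.12. With AO229 alone, Crtc1 was at 0.0275, Pde4b at 0.33, Pde4d at 0.0734, Adora2a at 0.23, Pde2a at 0.22 and Pde8a at 0.18. Leaving out 1 library moved shCrebbp minus scramble from -0.24 to 0.0307 for Atf1, from -0.27 to 0.0247 for Crtc1 and from -0.31 to 0.10 for Pde4b, and without a change of sign from 0.11 to 0.47 for Crem, from 0.0035 to 0.33 for Crtc3, from -0.55 to -0.0175 for Pde4d, from -0.29 to -0.12 for Crtc2 and from -0.31 to -0.0859 for Crebbp. It moved AO229 minus AO228 from -0.73 to 0.23 for Creb1, from -0.15 to 0.12 for Atf1, from -0.18 to 0.30 for Crtc2 and from -0.14 to 0.39 for Per1. The cause of these changes was not tested. The table gives no depth, so no limit for low genes such as Crtc1 could be set, and with 4 libraries a group the spread between libraries sets the precision.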
